A study of Mus musculus with 18 samples.

Results

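The genes described are 10 members of the pathway through which cyclic AMP (cAMP) reaches transcription and is then degraded, measured by RNA sequencing in cultured mouse cortical astrocytes. They are the transcription factors Crem (Entrez 12916), Creb1 (12912) and Atf1 (11908), the coactivators Crtc1 (382056), Crtc2 (74343) and Crtc3 (70461), the kinase Sik1 (17691) and the phosphodiesterases Pde4a (18577), Pde4b (18578) and Pde4d (238871). They were grouped by function, but with earlier results of these data known. All 10 were found by Entrez identifier among the 22078 identifiers of the deposited tables, and all 10 passed the filter on low counts in every fit, with 241 estimated counts or more in every library.

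Astrocytes were transfected with a plasmid for 1 of 3 DREADDs, muscarinic receptors changed so that they answer a synthetic ligand, or for a fluorescent protein. The groups were hM3Dq at 90 min (a human M3 receptor that couples to Gq and raises calcium), rM3Ds at 90 min (a rat M3 receptor that couples to Gs and raises cAMP), hM4Di at 90 min (a human M4 receptor that couples to Gi and lowers cAMP), EGFP at 90 min, hM3Dq at 3 days and mCherry at 3 days, with 3 libraries in each. All 6 groups, the EGFP and mCherry controls included, received 8 µM of the DREADD ligand deschloroclozapine (DCZ) for 90 min, and the groups at 3 days were then kept in medium without DCZ for 3 days. A receptor without DCZ was in none of the groups, and so stimulation and carrying the receptor cannot be told apart. DCZ was added a week after transfection, and the labels give neither the plasmids' promoter nor the share of cells transfected. In bulk RNA, fewer cells with a transcript and less of it per cell cannot be told apart.

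In the textbook pathway, cAMP activates protein kinase A, which phosphorylates CREB (the product of Creb1) and its relatives ATF1 and CREM, so that they recruit coactivators at cAMP response elements. CRTC proteins are another kind of coactivator. Salt-inducible kinases such as SIK1 hold them in the cytoplasm, and cAMP and calcium signals release them. The pathway also limits itself, since Sik1 and the short repressor form of Crem called ICER are themselves induced through CREB, and PDE4 enzymes degrade cAMP. Most of this regulation acts on the proteins, which RNA levels do not show.

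The motif that these factors bind was looked for in the RefSeq promoter windows of GRCm38.p6, each of 300 bases from 250 before to 50 after an annotated start. The files use another build (mm39), so these windows describe the genes and give no position in the files. The half-site searched was TGACG, with its reverse complement CGTCA, and the full site is the palindrome in which both overlap by CG. A half-site lay in 20.8% of the 32851 windows and a full site in 1.79%. Windows were matched for 7 of the 10 genes, 12 windows in all, and 3 of them (25.0%) held a half-site and none a full site. Crem, Crtc2 and Sik1 are named only. Among the genes commonly listed as CREB targets, 21 of 30 windows (70.0%) held a half-site and 6 a full site, and full sites are counted in the half-sites. The 3 windows with a half-site are shown to set the letters of Atf1, Pde4a and Pde4b beside those of Nr4a2, a CREB target that was called with both hM3Dq and rM3Ds. They are written 5′ to 3′ on the gene's strand, with half-sites in capitals: Atf1 is chr15:100227609-100227908 on the plus strand, Pde4a is chr9:21183851-21184150 on the plus strand, Pde4b is chr4:102421305-102421604 on the plus strand and Nr4a2 is chr2:57123954-57124253 on the minus strand.
Atf1: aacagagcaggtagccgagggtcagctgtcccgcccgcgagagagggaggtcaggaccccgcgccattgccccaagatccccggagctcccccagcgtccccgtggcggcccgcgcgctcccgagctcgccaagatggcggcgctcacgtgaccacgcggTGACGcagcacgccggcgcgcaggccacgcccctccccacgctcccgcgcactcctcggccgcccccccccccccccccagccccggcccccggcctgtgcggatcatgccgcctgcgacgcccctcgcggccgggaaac
Pde4a: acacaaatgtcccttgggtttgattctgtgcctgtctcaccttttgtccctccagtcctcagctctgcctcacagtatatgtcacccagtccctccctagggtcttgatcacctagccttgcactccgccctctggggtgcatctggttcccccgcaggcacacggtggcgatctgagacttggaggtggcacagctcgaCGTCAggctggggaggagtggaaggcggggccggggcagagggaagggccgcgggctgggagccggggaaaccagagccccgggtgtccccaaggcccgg
Pde4b: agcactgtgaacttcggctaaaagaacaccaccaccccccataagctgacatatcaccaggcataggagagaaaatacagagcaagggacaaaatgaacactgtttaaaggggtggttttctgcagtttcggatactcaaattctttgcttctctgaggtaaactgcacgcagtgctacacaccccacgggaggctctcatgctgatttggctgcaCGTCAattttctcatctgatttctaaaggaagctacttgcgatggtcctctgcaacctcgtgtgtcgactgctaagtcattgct
Nr4a2: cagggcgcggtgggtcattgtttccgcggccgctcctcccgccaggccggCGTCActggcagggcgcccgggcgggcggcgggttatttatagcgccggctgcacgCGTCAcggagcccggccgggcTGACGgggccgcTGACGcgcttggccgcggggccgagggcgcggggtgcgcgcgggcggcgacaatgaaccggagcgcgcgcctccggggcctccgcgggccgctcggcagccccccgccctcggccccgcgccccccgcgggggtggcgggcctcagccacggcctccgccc
The half-site begins 90 bases before the start in Atf1, 50 in Pde4a and 34 in Pde4b. The window of Nr4a2 holds 4 half-sites, at 200, 144, 123 and 111 bases before the start. The other 2 matched windows of Pde4a, the other 3 of Pde4b and the only matched windows of Creb1, Crtc1, Crtc3 and Pde4d hold none. A match is a description of these letters and not a bound site.

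Library totals were 16.1 to 25.2 M estimated counts in the 90 min table and 16.6 to 19.7 M in the 3-day table. Levels are given as CPM, counts scaled to library size within each of these tables, and p-values are adjusted over all genes tested. Astrocyte markers were present but uneven: the list of 12 summed to 3311 to 7415 CPM over the 18 libraries, with Vim at 2580 to 6460 CPM and Gfap, the classical astrocyte filament, at 1.68 to 23.2 CPM. The list of 10 fibroblast and mural markers summed to 1968 to 3547 CPM with only 1 or 2 genes under a mean of 1 CPM in any group, and Col1a1 lay at 652 to 1920 CPM, whereas the 10 microglial markers summed to at most 2.65 CPM. At 90 min EGFP 1, rM3Ds 2 and rM3Ds 3 stood apart from the other 9 libraries on the first principal component (52.5% of the variance), and Mki67, a proliferation marker, was 79.9, 42.0 and 52.2 CPM in them against 3.22 to 20.7 CPM in the other 9. At 3 days mCherry 3 stood apart on the first component (56.7% of the variance), with Mki67 at 9.53 CPM against 1.98 to 6.54 CPM in the other libraries at that time. The library hM4Di 1 lay between the 3 and the other 8 on that component, with Gfap at 16.4 CPM against 1.95 to 3.94 CPM in those 8. Where the call changed or the value moved by over 1.5 times, most gene values below are also given without the libraries that stand apart. Values not stated below moved as well. With hM4Di relative to EGFP, the log2 fold change of Pde4b went from -0.29 to -0.46 and that of Pde4d from -0.07 to -0.21. For rM3Ds relative to hM4Di, Pde4d went from 0.45 to 0.15. Some marker sums separated groups. The 10 endothelial markers summed to 48.0 to 48.5 CPM with hM3Dq, 29.8 to 32.3 CPM with rM3Ds, 35.9 to 43.5 CPM with hM4Di and 35.8 to 45.5 CPM with EGFP, while Pecam1, a defining marker, was at 0.61 CPM or less throughout. The astrocyte list summed to 6202 to 7415 CPM with hM3Dq, 6065 to 6528 CPM with rM3Ds and 5661 to 7069 CPM with hM4Di, against 5532 to 6059 CPM with EGFP. Most of each astrocyte sum was Vim alone, at 5333 to 6456 CPM with hM3Dq and 4750 to 5078 CPM with EGFP. Whether the rest of the astrocyte list separated these groups was not tested. The microglial sums were lower with hM3Dq and rM3Ds than with EGFP, at 1.49 to 1.82 CPM and 1.12 to 1.22 CPM against 1.90 to 2.65 CPM. At 3 days the 10 neuronal markers summed to 198 to 203 CPM with hM3Dq and 233 to 250 CPM with mCherry. The 10 oligodendrocyte markers summed to 115 to 116 CPM with hM3Dq and 90.9 to 108 CPM with mCherry. In both groups 8 of the 10 neuronal and 5 of the 10 oligodendrocyte markers had a mean under 1 CPM. The neuronal marker Rbfox3 had no counts at 3 days, so these sums rest on few genes. The part of these differences in the results was not tested.

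Of the 10 genes, 1 passed edgeR's adjusted test in 1 comparison: Sik1 was higher with hM3Dq relative to hM4Di, by 1.60-fold. In that comparison edgeR called 0.802% of all genes. The edgeR adjusted p of Sik1 was 0.0448, and its call was lost in 9 of 13 alternative settings. Relative to EGFP at 90 min the highest estimates were Sik1 at 1.52-fold with hM3Dq and Crem at 1.51-fold with rM3Ds and 1.31-fold with hM3Dq. The PDE4 genes, which also limit the pathway, lay at 1.01 to 1.08-fold with hM3Dq. With rM3Ds they ran from 0.753-fold for Pde4a to 1.3-fold for Pde4d. Those estimates did not pass edgeR's adjusted threshold. The log2 fold changes of Atf1 and the 3 Crtc genes relative to EGFP lay between -0.14 and 0.10 under the 3 receptors, or between -0.17 and 0.195 without the 3 libraries that stand apart.

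With hM3Dq at 90 min, edgeR's quasi-likelihood test called 0 of the 10 genes relative to EGFP at an adjusted p under 0.05, where it called 0.788% of the 13584 genes tested (107 genes, or 66 with the replicate numbers as a block). At an unadjusted p under 0.05 it counted 2 of the 10, Crem and Sik1, where it counted 7.94% of all genes. DESeq2 called 1, Sik1, where it called 1.68% of the genes it tested. The groups did not overlap for Crem and Sik1, both higher with hM3Dq, where 14.8% of all genes did not overlap in either direction. The estimates of all 10 lay above 0 (but 4 lay below it without the libraries that stand apart: Crtc2, Crtc3, Pde4b and Pde4d), with a median log2 fold change of 0.07 for the 10 and -0.0034 for all genes tested. The other 8 had estimates of 0.02 to 0.21 and 95% intervals that together ran from -0.41 to 0.64.

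With rM3Ds at 90 min, edgeR called 0 of the 10 relative to EGFP, where it called 0.0147% of all genes, which were 2 genes of 13584. At an unadjusted p under 0.05 it counted 3 (Crem, Sik1 and Pde4a), where it counted 4.23% of all genes, and DESeq2 called 1, Crem, where it called 0.37%. The groups did not overlap for Crem and Pde4b, higher with rM3Ds, and Pde4a, lower with rM3Ds, where 7.52% of all genes did not overlap. The median log2 fold change of the 10 was 0.05, and that of all genes was -0.02. With hM4Di, edgeR called 0 of the 10 relative to EGFP (0% of all genes), counted 0 at an unadjusted p under 0.05 (5.48% of all genes), and DESeq2 called 0 (0.342%). The groups overlapped for all 10 (8.52% of all genes did not overlap). Their 95% intervals with hM4Di together ran from -0.73 to 0.46 on the log2 scale, and differences within that span are left undecided by the test.

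**Figure D1:**
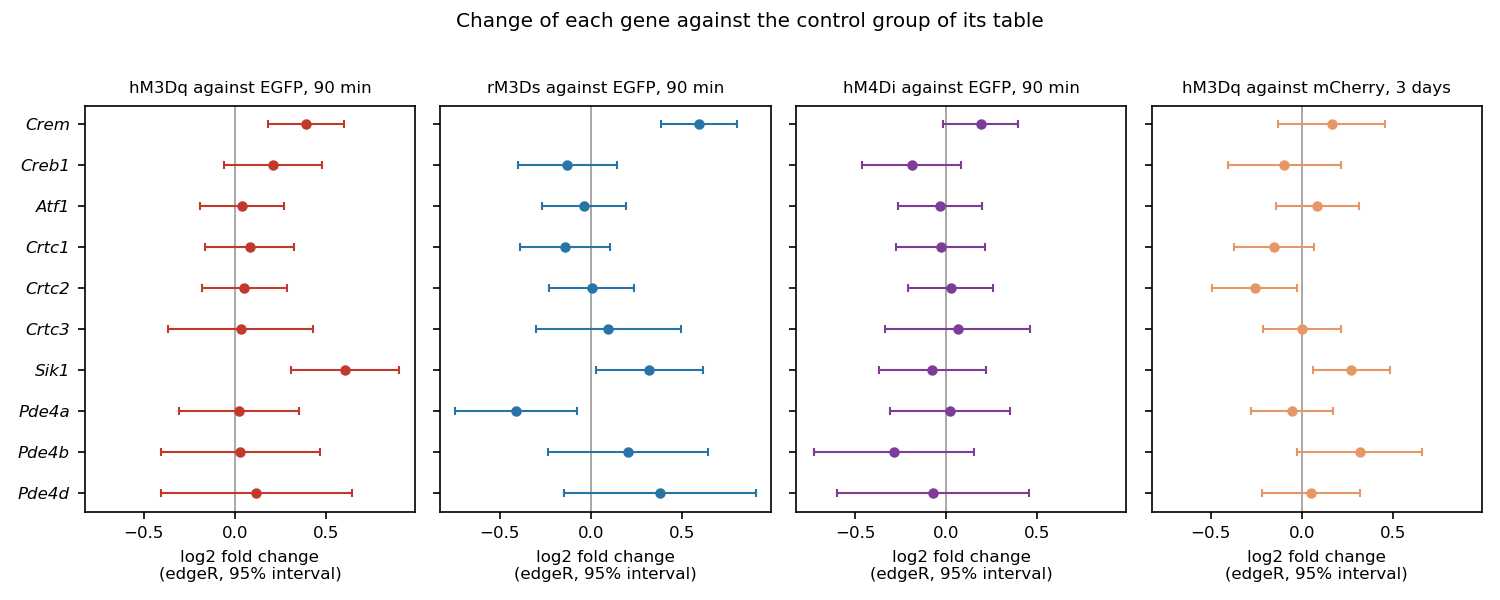
Log2 fold change of each of the 10 genes against the control of its table (EGFP at 90 min, mCherry at 3 days), from edgeR. Points are estimates and bars are 95% intervals from 3 libraries per group. Crem and Sik1 lie to the right of 0 with hM3Dq (0.39 and 0.60) and with rM3Ds (0.59 and 0.32), and the intervals of Creb1, Atf1 and the 3 Crtc genes span 0 at 90 min.

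Crem encodes activator and repressor forms of a CREB relative, and gene-level counts do not separate ICER from the rest. The level of Crem was 21.9, 20.6 and 21.9 CPM in the hM3Dq libraries and 25.6, 25.2 and 23.5 CPM in the rM3Ds libraries. It was 18.6, 20.3 and 17.1 CPM with hM4Di, and 15.2, 16.8 and 17.2 CPM with EGFP. Every rM3Ds library lay above every hM3Dq library, and every hM3Dq library lay above every hM4Di and EGFP library, while hM4Di and EGFP overlapped between 17.1 and 17.2 CPM. The means were 24.8 ± 1.13 CPM with rM3Ds, 21.5 ± 0.78 CPM with hM3Dq, 18.7 ± 1.56 CPM with hM4Di and 16.4 ± 1.05 CPM with EGFP (SD, n = 3 each). For Crem and the genes below, the share of all genes whose libraries separate between 2 receptors was not counted. Relative to EGFP, 14.8% of all genes did not overlap with hM3Dq and 7.52% with rM3Ds.

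With rM3Ds the log2 fold change of Crem relative to EGFP was 0.59 ± 0.095 (SE, 95% interval 0.39 to 0.80), with an unadjusted p of 5.75e-05 and an adjusted p of 0.195 from edgeR. DESeq2 gave an adjusted p of 0.000263, so that the call of Crem depends on the tool. Without EGFP 1, rM3Ds 2 and rM3Ds 3 the estimate was 0.58 with an edgeR adjusted p of 1, where the 1 rM3Ds library left is taken to have the spread of the remaining groups. With a term for those libraries it was 0.63 with an edgeR adjusted p of 0.0629, so that the estimate was about as large either way. Leaving out rM3Ds 1 alone gave an edgeR adjusted p of 0.0373. That setting leaves in rM3Ds only libraries that stand apart, and in it edgeR called 115 of 13833 genes. With hM3Dq the log2 fold change of Crem was 0.39 ± 0.095 relative to EGFP (edgeR adjusted p = 0.141, DESeq2 adjusted p = 0.0503), and with hM4Di it was 0.19 ± 0.094 (edgeR adjusted p = 0.833), or 0.12 without the libraries that stand apart. Between receptors, Crem differed by -0.21 ± 0.094 for hM3Dq relative to rM3Ds (edgeR adjusted p = 0.353). It differed by 0.41 ± 0.094 for rM3Ds relative to hM4Di, where edgeR's adjusted p was 0.214 and DESeq2's was 0.0261.

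Creb1 encodes CREB itself, the constitutive factor of the family. Its level was 67.1, 65.8 and 59.1 CPM with hM3Dq, 50.9, 47.1 and 53.8 CPM with rM3Ds, 55.8, 48.4 and 41.2 CPM with hM4Di, and 47.9, 60.6 and 57.6 CPM with EGFP. The hM3Dq libraries lay above those of the other receptors, but EGFP 2 lay between hM3Dq 3 and hM3Dq 2. The log2 fold change relative to EGFP was 0.21 ± 0.12 with hM3Dq (edgeR adjusted p = 0.752), and -0.13 with rM3Ds and -0.19 with hM4Di. Without the libraries that stand apart it was 0.105 with hM3Dq, -0.22 with rM3Ds and -0.30 with hM4Di. Relative to hM4Di, hM3Dq was higher by 0.40 ± 0.12 with an unadjusted p of 0.00782 and an adjusted p of 0.205 from edgeR, and relative to rM3Ds it was higher by 0.34 ± 0.12 (edgeR adjusted p = 0.259).

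Atf1 encodes a close relative of CREB. Its level was 58.9, 56.7 and 56.3 CPM with hM3Dq, 63.8, 49.6 and 49.8 CPM with rM3Ds, 49.7, 58.7 and 54.7 CPM with hM4Di, and 56.2, 53.3 and 57.7 CPM with EGFP. All groups overlapped EGFP, and the 95% intervals of its log2 fold changes relative to EGFP ran from -0.27 to 0.27 over the 3 receptors.

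Because Crem and Creb1 encode factors for the same element, the ratio of their estimated counts was taken within each library, which needs no scaling between libraries. This ratio was chosen after the levels were seen and is given as a description. It was 0.326, 0.312 and 0.370 with hM3Dq, 0.503, 0.535 and 0.436 with rM3Ds, 0.334, 0.419 and 0.416 with hM4Di, and 0.318, 0.276 and 0.299 with EGFP. The rM3Ds libraries were the 3 highest of the 12. With rM3Ds the ratio was higher than with EGFP by 0.72 on the log2 scale, and by 0.81 without the 3 libraries that stand apart. Every hM4Di library also lay above every EGFP library, with a difference of 0.38, or 0.43 without those libraries. With hM3Dq the difference from EGFP was 0.17, or 0.22 without them.

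**Figure D2:**
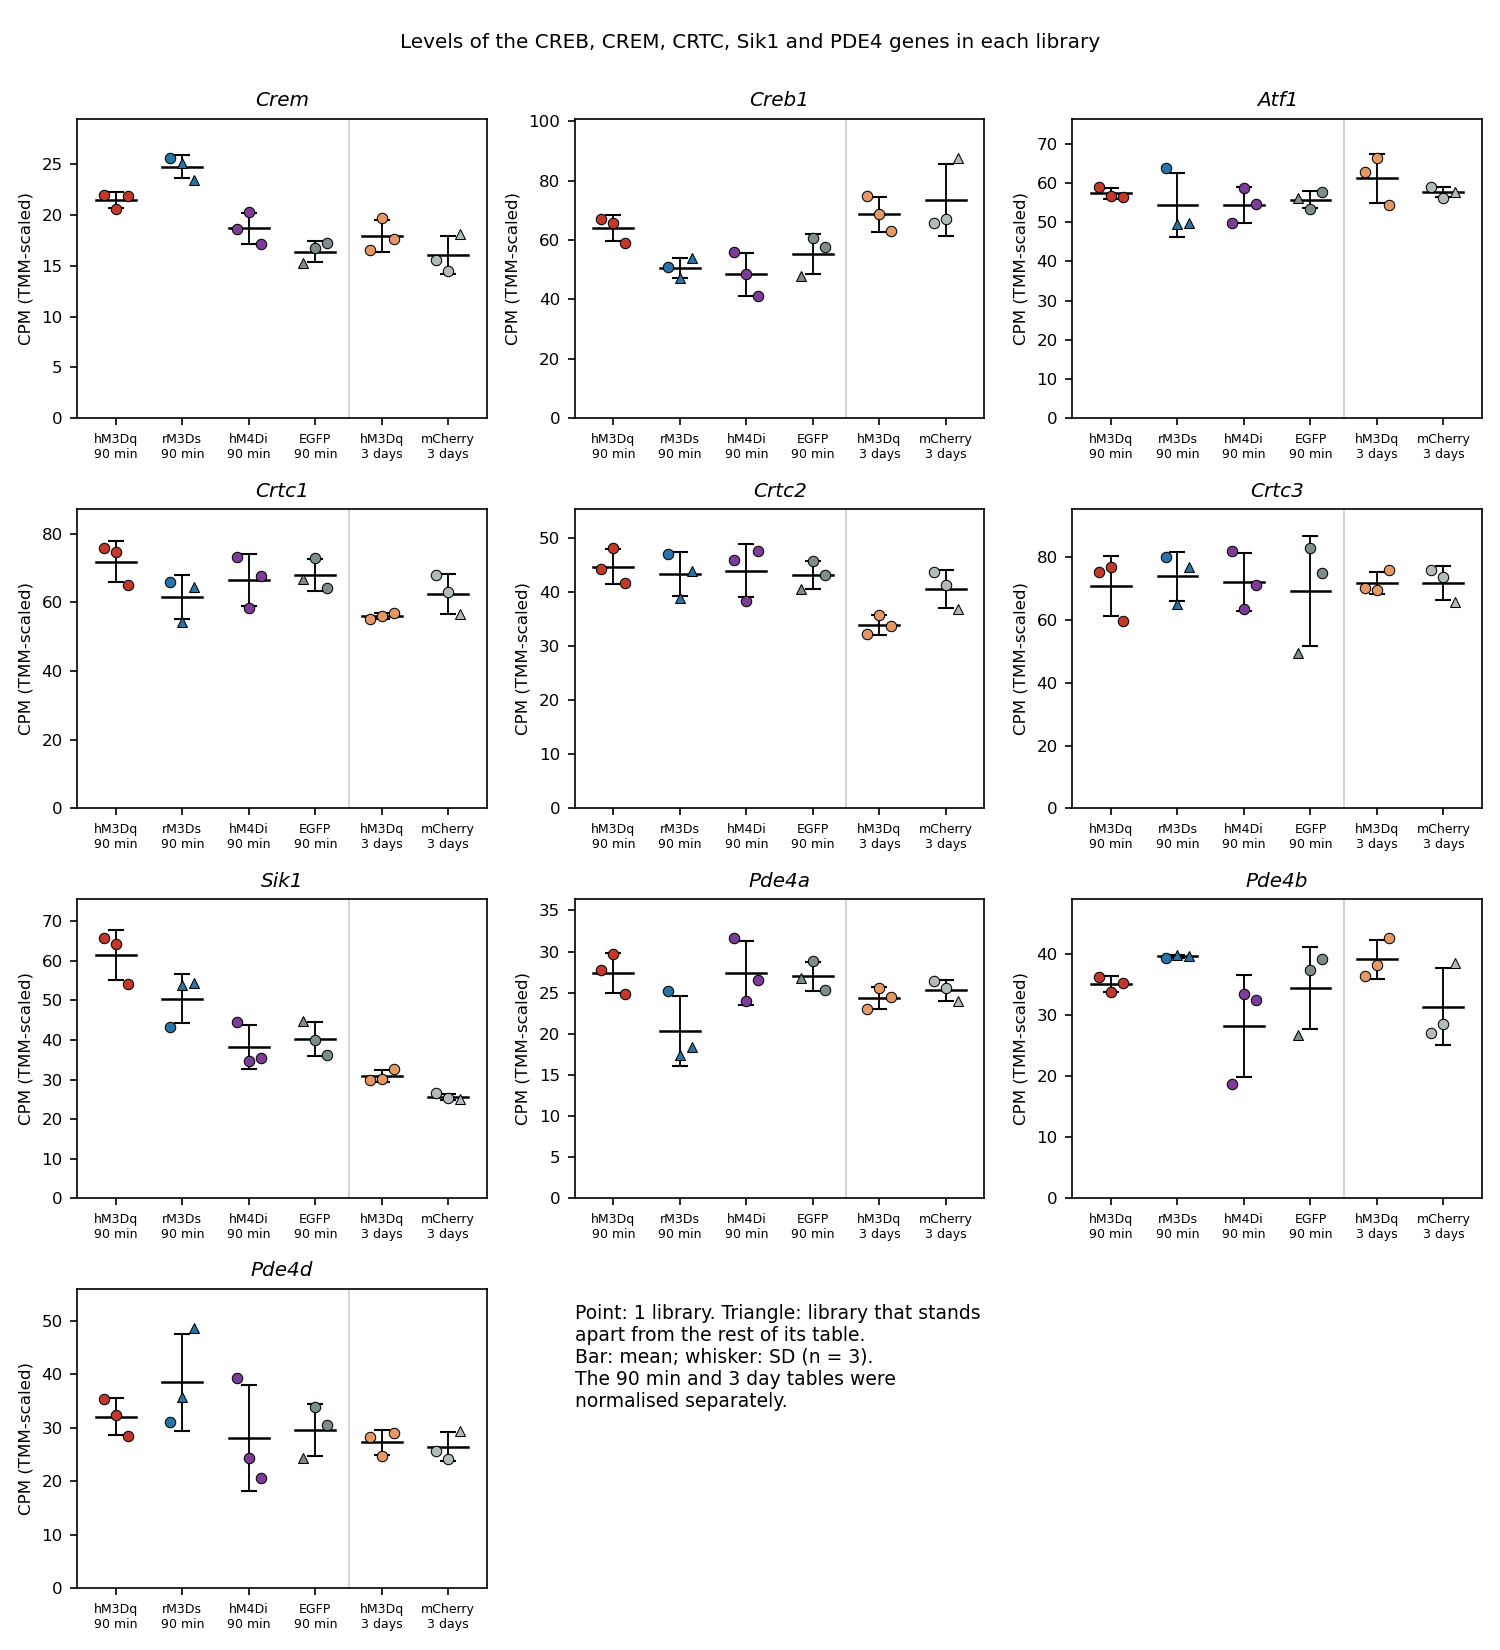
Level of each gene in every library, in CPM on TMM-scaled library sizes. Points are libraries, triangles are the libraries that stand apart, bars are means and whiskers SD (n = 3), and the tables at 90 min and 3 days were normalised separately. Crem is highest with rM3Ds (23.5 to 25.6 CPM) and Sik1 with hM3Dq (54.1 to 65.7 CPM).

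The CRTC genes encode the coactivators that SIK kinases hold back. Crtc1 was 75.8, 74.7 and 65.0 CPM with hM3Dq, 66.0, 54.2 and 64.5 CPM with rM3Ds, 73.2, 58.4 and 67.8 CPM with hM4Di, and 66.7, 73.0 and 64.1 CPM with EGFP. Crtc2 was 44.2, 48.2 and 41.7 CPM with hM3Dq, 47.0, 39.0 and 43.9 CPM with rM3Ds, 45.8, 38.4 and 47.6 CPM with hM4Di, and 40.6, 45.8 and 43.1 CPM with EGFP. Neither gene separated any receptor from EGFP. Crtc3 was 75.5, 77.0 and 59.8 CPM with hM3Dq, 80.1, 65.2 and 76.8 CPM with rM3Ds, 82.0, 63.5 and 71.0 CPM with hM4Di, and 49.6, 83.0 and 75.1 CPM with EGFP. The spread of Crtc3 within EGFP, whose lowest value is in EGFP 1, exceeded every difference between its group means. The estimates of the 3 genes relative to EGFP ran from -0.14 for Crtc1 with rM3Ds to 0.10 for Crtc3 with rM3Ds, with edgeR adjusted p-values of 0.956 or more. Without the 3 libraries that stand apart they ran from -0.17 for Crtc3 with hM3Dq to 0.08 for Crtc2 with rM3Ds. Each has only 1 protein-coding transcript in the GENCODE basic annotation, which leaves out other annotated transcripts. Per kilobase of it, the mean level with EGFP was 15.7 ± 0.94 CPM per kb for Crtc2, 13.5 ± 3.41 for Crtc3 and 11.9 ± 0.80 for Crtc1 (SD, n = 3). On the same scale it was 23.6 ± 0.94 CPM per kb for Atf1 and 8.92 ± 0.95 for Sik1. Crtc3 overlapped Crtc2 and Crtc1 within its SD, and the other genes have several transcripts of unlike length and were not placed in this order.

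Sik1, the salt-inducible kinase that is induced by cAMP and calcium and restrains the CRTC proteins, was the gene that passed the test. Its level was 65.7, 64.2 and 54.1 CPM with hM3Dq, 43.3, 53.8 and 54.3 CPM with rM3Ds, 44.6, 34.7 and 35.5 CPM with hM4Di, and 44.8, 39.9 and 36.3 CPM with EGFP. Every hM3Dq library lay above every hM4Di and EGFP library, whereas rM3Ds overlapped EGFP in the range of rM3Ds 1, at 43.3 CPM, and EGFP 1, at 44.8 CPM. In both overlapping groups the libraries that stand apart were the higher ones. The means were 61.3 ± 6.31 CPM with hM3Dq, 50.5 ± 6.18 CPM with rM3Ds, 38.2 ± 5.48 CPM with hM4Di and 40.3 ± 4.29 CPM with EGFP (SD, n = 3 each).

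With hM3Dq relative to hM4Di, Sik1 rose by 0.68 ± 0.13 on the log2 scale (95% interval 0.39 to 0.98, edgeR adjusted p = 0.0448, DESeq2 adjusted p = 0.00141). It was the 1 gene of the 10 that edgeR called there, where it called 0.802% of all genes. At an unadjusted p under 0.05 edgeR counted 2 of the 10, Sik1 and Creb1, where it counted 11.4% of all genes, and DESeq2 called 1, where it called 2.68%. The adjusted p of Sik1 lay near the threshold. Without 1 library it ran from 0.0287 without hM4Di 1 to 0.278 without hM3Dq 1, and it lay above 0.05 also without hM4Di 2 (0.163), hM4Di 3 (0.212), hM3Dq 2 (0.226) and hM3Dq 3 (0.0658), while the estimate stayed between 0.59 and 0.82. Relative to EGFP, hM3Dq was higher by 0.60 ± 0.13 (edgeR adjusted p = 0.0865, DESeq2 adjusted p = 0.00996). That estimate was 0.68 (edgeR adjusted p = 0.0956) without the libraries that stand apart and 0.70 (edgeR adjusted p = 0.00928) with a term for them.

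With rM3Ds relative to EGFP the log2 fold change of Sik1 was 0.32 ± 0.13, with an unadjusted p of 0.035 and an adjusted p of 1 from edgeR, and it was 0.18 without the libraries that stand apart. The difference between hM3Dq and rM3Ds was 0.28 ± 0.13 (edgeR adjusted p = 0.367), or 0.50 without those libraries (edgeR adjusted p = 0.862) and 0.17 without rM3Ds 1. With hM4Di relative to EGFP it was -0.08 ± 0.13 (edgeR adjusted p = 0.917), or -0.0069 without them. The related kinases Sik2 and Sik3 were not called in any comparison. The level of Sik2 averaged 63.7 ± 11.2 CPM with hM3Dq and 53.0 ± 4.41 CPM with EGFP, and Sik3 averaged 143 ± 5.91 CPM with hM3Dq and 125 ± 11.3 CPM with EGFP (SD, n = 3 each).

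The PDE4 genes encode the enzymes that remove cAMP in most cells, each with several promoters and isoforms that gene-level counts sum. Pde4a was 27.8, 29.7 and 24.8 CPM with hM3Dq, 25.2, 17.4 and 18.4 CPM with rM3Ds, 31.6, 23.9 and 26.6 CPM with hM4Di, and 26.8, 28.9 and 25.4 CPM with EGFP. The low values belong to rM3Ds 2 and rM3Ds 3, which stand apart, and rM3Ds 1 lay just under the lowest EGFP library. The log2 fold change relative to EGFP was -0.41 ± 0.15 with rM3Ds (unadjusted p = 0.0205 and adjusted p = 1 from edgeR), and it was -0.11 without the libraries that stand apart. It was 0.02 with hM3Dq and 0.02 with hM4Di, or 0.0051 and 0.0017 without those libraries. In the difference between hM3Dq and rM3Ds, 0.43 ± 0.15, edgeR's adjusted p was 0.245, and it was 0.0401 without rM3Ds 1, which leaves in rM3Ds only libraries that stand apart. Without the 3 that stand apart the difference was 0.12. For rM3Ds relative to hM4Di it was -0.43 ± 0.15 (edgeR adjusted p = 0.383), and -0.62 without rM3Ds 1 (edgeR adjusted p = 0.0464) but -0.12 without the 3 that stand apart. In both comparisons edgeR called more of all genes without rM3Ds 1 than in the main fit.

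Pde4b was 36.4, 33.8 and 35.4 CPM with hM3Dq, 39.4, 39.9 and 39.7 CPM with rM3Ds, 18.7, 33.6 and 32.5 CPM with hM4Di, and 26.8, 37.4 and 39.3 CPM with EGFP. The rM3Ds libraries lay close together and above all other libraries at 90 min, but EGFP 3, at 39.3 CPM, lay just below them. The log2 fold change with rM3Ds was 0.20 ± 0.20 relative to EGFP (edgeR adjusted p = 1), and 0.03 without the libraries that stand apart. Relative to hM4Di it was 0.49 ± 0.20 (edgeR adjusted p = 0.446), with hM4Di 1 as the lowest library, and it was 0.27 without hM4Di 1 (edgeR adjusted p = 0.356). Pde4d was 35.4, 32.4 and 28.5 CPM with hM3Dq, 31.1, 35.9 and 48.7 CPM with rM3Ds, 39.3, 24.4 and 20.7 CPM with hM4Di, and 24.3, 34.0 and 30.6 CPM with EGFP. All groups overlapped, hM4Di 1 again lying far from the other hM4Di libraries, and its log2 fold change with rM3Ds was 0.38 ± 0.24 relative to EGFP, and -0.06 when those that stand apart were left out. Pde4c, the remaining PDE4 gene, lay at 0.0946 to 0.515 CPM in all 18 libraries and was below the filter in every fit.

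The ratio of Pde4b to Pde4a counts, also chosen after the levels were seen, was 1.31, 1.14 and 1.43 with hM3Dq, 1.56, 2.30 and 2.16 with rM3Ds, 0.591, 1.40 and 1.22 with hM4Di, and 1.00, 1.29 and 1.55 with EGFP. The ratio was higher with rM3Ds than with EGFP by 0.65 on the log2 scale, but by only 0.14 without the libraries that stand apart. In this it was unlike the ratio of Crem to Creb1, whose difference was no smaller without them. For both ratios the values without them rest on rM3Ds 1 as the only rM3Ds library.

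**Figure D3:**
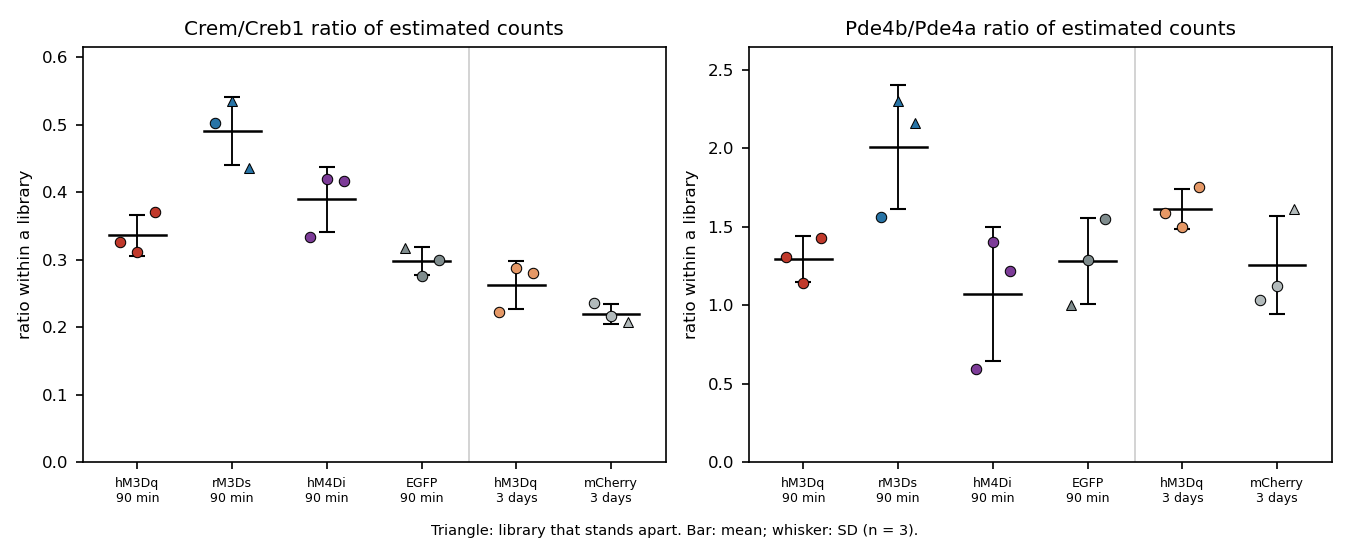
Ratios of estimated counts within each library, Crem to Creb1 and Pde4b to Pde4a, by group. Points are libraries, triangles are the libraries that stand apart, bars are means and whiskers SD (n = 3). Crem to Creb1 lies at 0.436 to 0.535 with rM3Ds and 0.276 to 0.318 with EGFP, and the highest Pde4b to Pde4a ratios, 2.30 and 2.16, are in libraries that stand apart.

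Between the receptors, edgeR called 0 of the 10 for hM3Dq relative to rM3Ds, where it called 0.67% of all genes. At an unadjusted p under 0.05 it counted 2, Creb1 and Pde4a, where it counted 14.2% of all genes, and DESeq2 called 0, where it called 3.4%. For rM3Ds relative to hM4Di edgeR called 0, where it called 0.0147% of all genes. It counted 4 at an unadjusted p under 0.05 (Crem, Sik1, Pde4a and Pde4b), where it counted 9.97% of all genes, and DESeq2 called 1, Crem, where it called 1.51%. The estimate of Sik1 there was 0.40 ± 0.13. It was 0.19 without the libraries that stand apart, which include rM3Ds 2 and rM3Ds 3, and 0.21 with a term for them. The comparisons between receptors and with EGFP share their libraries and are not independent of each other.

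At 3 days after the stimulation, edgeR called 0 of the 10 for hM3Dq relative to mCherry (0% of 12807 genes), and DESeq2 called 0 (1.09%). At an unadjusted p under 0.05 edgeR counted 2, Sik1 and Crtc2, where it counted 12% of all genes. The groups did not overlap for Sik1, higher with hM3Dq, and Crtc2, lower with hM3Dq, where 25.1% of all genes did not overlap. Sik1 was 29.9, 30.2 and 32.6 CPM with hM3Dq and 26.6, 25.3 and 25.0 CPM with mCherry, with a log2 fold change of 0.27 ± 0.092 (edgeR adjusted p = 0.324). Crtc2 was 32.2, 35.8 and 33.8 CPM with hM3Dq and 43.8, 41.3 and 36.8 CPM with mCherry, with a log2 fold change of -0.26 ± 0.10 (edgeR adjusted p = 0.378). The lowest mCherry value of Crtc2, in mCherry 3, lay near the highest hM3Dq value.

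The other factors and coactivators overlapped at 3 days. Crem was 16.6, 19.7 and 17.6 CPM with hM3Dq and 15.5, 14.4 and 18.1 CPM with mCherry, and Creb1 was 74.6, 68.6 and 62.9 CPM with hM3Dq and 65.8, 67.0 and 87.6 CPM with mCherry. Their log2 fold changes were 0.16 ± 0.13 and -0.10 ± 0.13. Without mCherry 3 they were 0.26 for Crem and 0.05 for Creb1, whose sign thus turned, and Crem was at 0.09 without hM3Dq 2 or without mCherry 2. Crtc1 was 55.2, 56.0 and 56.9 CPM with hM3Dq and 68.0, 62.8 and 56.4 CPM with mCherry, and Pde4b was 36.5, 38.3 and 42.7 CPM with hM3Dq and 27.2, 28.5 and 38.6 CPM with mCherry. For both genes it was mCherry 3 that made the groups overlap. Without mCherry 3, edgeR called 4 of the 10, where it called 9.72% of all genes, or 1257 of 12929. These were Crtc1 at -0.22 (edgeR adjusted p = 0.0324), Crtc2 at -0.33 (0.0105), Sik1 at 0.25 (0.0493) and Pde4b at 0.50 (0.00196). The groups overlapped for the remaining 4 genes with all 6 libraries. Atf1 lay at 54.3 to 66.3 CPM with hM3Dq and 56.2 to 58.9 CPM with mCherry, and Crtc3 at 69.5 to 75.8 CPM with hM3Dq and 65.8 to 76.0 CPM with mCherry. Pde4a lay at 23.0 to 25.6 CPM with hM3Dq and 23.9 to 26.5 CPM with mCherry, and Pde4d at 24.7 to 29.1 CPM with hM3Dq and 24.2 to 29.5 CPM with mCherry. Their log2 fold changes were 0.08 for Atf1, -0.0012 for Crtc3, -0.06 for Pde4a and 0.05 for Pde4d. Without mCherry 3 they were 0.09, -0.06, -0.09 and 0.14 in the same order of genes.

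The change of the hM3Dq effect between the times was tested with each effect taken relative to its own control. EdgeR called 0 of the 10, where it called 0.396% of 13391 genes, and counted 1, Crtc2, at an unadjusted p under 0.05, where it counted 9.73%. DESeq2 called 0, where it called 1.59%. The difference was -0.30 ± 0.14 for Crtc2 (edgeR adjusted p = 0.507), -0.33 ± 0.15 for Sik1 (edgeR adjusted p = 0.514) and -0.22 ± 0.16 for Crem (edgeR adjusted p = 0.676), or -0.12 for Crem without mCherry 3.

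Around these genes, the rest of the cAMP pathway was represented by a list of 60 genes, of which 54 were tested at 90 min. It holds adenylyl cyclases, protein kinase A subunits, anchoring proteins, other phosphodiesterases, CREB relatives and histone deacetylases that SIK kinases control. With hM3Dq relative to EGFP edgeR and DESeq2 each called 1 of the 54, which rose, where they called 0.788% and 1.68% of all genes. The median log2 fold change was -0.03 for the list and -0.0034 for all genes. With rM3Ds and hM4Di relative to EGFP none of the 54 passed edgeR's or DESeq2's test. Over all genes edgeR called 0.0147% and 0% there, and DESeq2 called 0.37% and 0.342%. An unadjusted edgeR p under 0.05 was found for 1 and 3 of the 54, and for 4.23% and 5.48% of all genes. The medians were -0.06 and -0.17 beside -0.02 and -0.0092 for all genes. The gene that rose was Pde10a, a phosphodiesterase of both cAMP and cGMP, at 361, 330 and 299 CPM with hM3Dq against 112, 199 and 192 CPM with EGFP. It rose by 0.98 ± 0.19 (edgeR adjusted p = 0.0406). The call was lost without hM3Dq 1 (0.215), hM3Dq 2 (0.164), hM3Dq 3 (0.0872), EGFP 2 (0.0632) or EGFP 3 (0.105), given as edgeR adjusted p-values, and also with the replicate numbers as a block (0.124) and with only the 2 groups compared (0.202). It was kept without EGFP 1 (0.0201) and without the 3 libraries that stand apart, where the value was 0.75 (edgeR adjusted p = 0.0162). It also rose with hM3Dq relative to rM3Ds, by 1.00 ± 0.19 (edgeR adjusted p = 0.0397), and relative to hM4Di, by 1.23 ± 0.19 (edgeR adjusted p = 0.0123), and leaving out single libraries took these as far as 0.233 (rM3Ds 2) and 0.0879 (hM3Dq 1). Relative to rM3Ds it was 0.94 with an edgeR adjusted p of 0.0684 once the 3 libraries standing apart were left out, and 0.70 (0.152) with a term for them. At 3 days edgeR and DESeq2 called none of the 52 genes tested (0% and 1.09% of all genes). An unadjusted edgeR p under 0.05 was found for 5 of them (12% of all genes).

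The output of the pathway was followed through 27 genes commonly listed as CREB targets, of which 24 were tested at 90 min. Many of them also answer calcium, ERK and serum response factor, so that they are no measure of CREB alone. The list was chosen with earlier results of these data known, so its counts are a description and not a test of the pathway. With hM3Dq relative to EGFP 10 of the 24 rose and 14 did not pass edgeR's test, where it called 0.788% of all genes. DESeq2 called 15, where it called 1.68%, and the median log2 fold change was 1.11. The 5 with the smallest p were Nr4a2, Ptgs2, Junb, Vgf and Nr4a1, at 3.21, 3.96, 1.29, 3.69 and 2.00. With rM3Ds relative to EGFP 2 rose and 22 did not pass edgeR's test, where it called 0.0147% of all genes. DESeq2 called 8, where it called 0.37%, and the median was 0.48. With hM4Di edgeR and DESeq2 called none of the 24, 4 had an unadjusted edgeR p under 0.05 (5.48% of all genes), and the median was 0.14.

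The pair that rose with rM3Ds was Vgf, a secreted neuropeptide precursor, and Nr4a2, the nuclear receptor gene whose promoter window is shown above. Vgf was 8.49, 6.53 and 6.21 CPM with hM3Dq, 7.18, 6.21 and 7.28 CPM with rM3Ds, 1.11, 1.13 and 1.53 CPM with hM4Di, and 0.426, 0.744 and 0.461 CPM with EGFP. Its log2 fold change was 3.66 ± 0.27 with rM3Ds (edgeR adjusted p = 0.000458), and hM3Dq and rM3Ds overlapped. Without the libraries that stand apart it was 3.55 with an edgeR adjusted p of 0.0539. Nr4a2 was 83.6, 64.2 and 71.7 CPM with hM3Dq, 25.7, 28.4 and 30.9 CPM with rM3Ds, 10.4, 11.4 and 11.8 CPM with hM4Di, and 5.82, 9.55 and 8.47 CPM with EGFP. It rose by 1.84 ± 0.17 with rM3Ds (edgeR adjusted p = 0.00203, or 1.5 and 0.084 without those libraries), and it was higher with hM3Dq than with rM3Ds by 1.37 ± 0.16 (edgeR adjusted p = 0.00309). At 3 days edgeR called none of the 23 targets tested, 8 had an unadjusted edgeR p under 0.05 (12% of all genes), and DESeq2 called 2 (1.09% of all genes). The hM3Dq effect on 6 of 24 targets was lower at 3 days than at 90 min by edgeR's interaction test, where it called 0.396% of all genes, and DESeq2 called 11, where it called 1.59%. The 5 with the smallest p were Ptgs2, Fosb, Fos, Nr4a2 and Inhba.

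**Figure D4:**
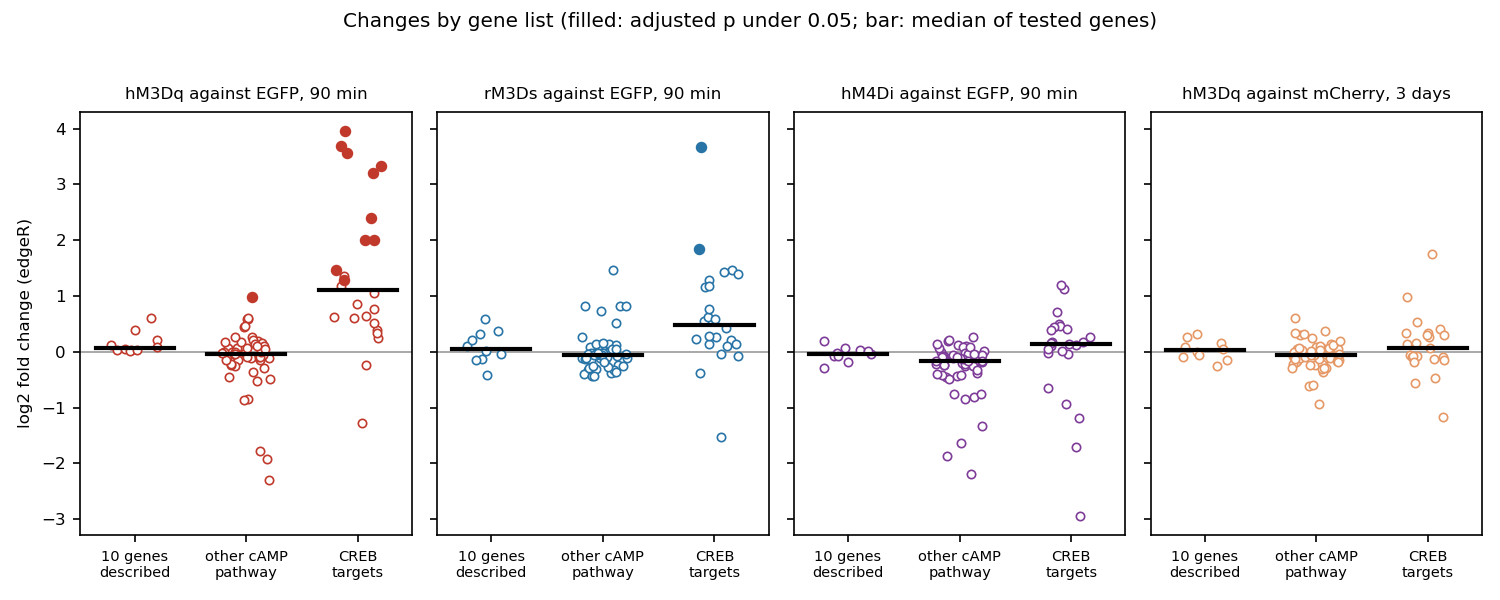
Log2 fold changes of the 10 genes, of the other cAMP pathway genes and of the CREB targets, against EGFP at 90 min and mCherry at 3 days. Each circle is a gene, filled where edgeR's adjusted p was under 0.05, and bars are medians of the tested genes. The 10 genes lie between -0.41 and 0.60, while 10 of 24 targets are filled with hM3Dq and 2 of 24 with rM3Ds.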

How the data were processed

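The authors deposited raw estimated counts per gene, 12 libraries in the table for 90 min and 6 in the table for 3 days. Salmon 1.8.0, fastp 0.23.4 and mm39 are named in the submitters' processing notes, and the labels' protocols state poly-A enrichment. How transcripts were summed to genes and whether strand was used are not given in the sources used here, so isoforms, overlapping and antisense genes cannot be separated.

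Counts were rounded and tested with edgeR 4.0.16 (R 4.3.3): quasi-likelihood test, robust dispersion, TMM, the default filter, and Benjamini-Hochberg adjustment over all genes tested, called under 0.05. The 4 groups at 90 min were fitted together, the groups at 3 days on their own, and the difference between times as an interaction over 12 libraries. DESeq2 1.42.0, its size factors in edgeR, no filter, a replicate block, only the groups compared and leaving out each library were alternatives. Those for the libraries that stand apart and the ratios were chosen after seeing the data. The tests were tried on simulated data first.

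Symbols came from a reference table by Entrez identifier (21978 of 22078 matched) and lengths of protein-coding transcripts from the GENCODE basic annotation of GRCm38. The genes and lists were chosen with earlier results of these data known. Of the other lists, Pde4c, Sik2, Sik3 and the called genes were named, at most the 5 with the smallest p per comparison. Genes most alike in pattern to any of the 10 called relative to EGFP were to be named, and none of the 10 was called. The labels do not say whether numbered libraries are separate cultures, so the p-values reflect the spread among libraries only, and it may be technical. Deviations from group means correlated above 0.1 in 7 of 18 same-numbered pairs at 90 min and 0 of 3 at 3 days. All 3 pairs of hM3Dq and EGFP at 90 min were above it (0.133, 0.162 and 0.123), and no other groups had all their pairs above it. Pairing was not used in the main fit of any comparison, and the replicate block was run only as an alternative.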

Additional observations from a re-analysis of the deposited data

Results flagged for a closer look

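Sik1 differed between receptors, with a level higher by 0.681 on the log2 scale with hM3Dq than with hM4Di. Pde10a was higher with hM3Dq by 1.00 relative to rM3Ds and by 1.23 relative to hM4Di. Of the CREB targets named for hM3Dq relative to rM3Ds, Fos differed by 1.46, Junb by 1.07, Nr4a1 by 1.58, Nr4a2 by 1.37 and Ptgs2 by 2.56. Relative to hM4Di, hM3Dq differed by 1.84 for Fos, 1.18 for Junb, 1.87 for Nr4a1, 2.71 for Nr4a2 and 3.56 for Ptgs2. With rM3Ds relative to hM4Di, Nr4a2 differed by 1.34 and Vgf by 2.46. Between the times, the hM3Dq effect at 3 days minus that at 90 min was -2.47 for Fos, -3.23 for Fosb, -2.66 for Nr4a2, -4.02 for Ptgs2 and -1.16 for Inhba. Each is listed because the difference itself passed edgeR's test at an adjusted p under 0.05.

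Some of these calls were lost under other settings, by edgeR's adjusted p. Sik1 lost its call without hM3Dq 1 (0.278), hM3Dq 2 (0.226), hM3Dq 3 (0.0658), hM4Di 2 (0.163) or hM4Di 3 (0.212). Pde10a relative to rM3Ds lost it without any 1 hM3Dq library (0.102 to 0.214), rM3Ds 2 (0.233), rM3Ds 3 (0.158) or the 3 libraries that stand apart (0.0684), and relative to hM4Di without hM3Dq 1 (0.0879), hM3Dq 2 (0.0717), hM4Di 2 (0.0605) or hM4Di 3 (0.0807). For rM3Ds relative to hM4Di, Vgf lost its call without hM4Di 1 (0.0547), hM4Di 2 (0.16), hM4Di 3 (0.0512) or rM3Ds 3 (0.103), and Nr4a2 without hM4Di 1 (0.0752), hM4Di 2 (0.16), hM4Di 3 (0.115), rM3Ds 2 (0.194) or rM3Ds 3 (0.3). Without the 3 libraries that stand apart both were lost, Vgf at 0.183 and Nr4a2 at 0.228, and with a term for them Nr4a2 was at 0.0685. With only these groups compared Vgf and Nr4a2 were both at 0.105. Between the times, Inhba lost its call without mCherry 2 (0.0507) or any 1 hM3Dq library at either time, with 0.115 as the highest adjusted p.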

How the results depend on the processing

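The count of the 10 genes called changed from 0 to 1 for hM3Dq relative to EGFP with DESeq2 and with the term for libraries standing apart, for rM3Ds relative to EGFP with DESeq2, and for rM3Ds relative to hM4Di with DESeq2. For hM3Dq relative to hM4Di the 1 call, Sik1, became 0 with DESeq2's size factors in edgeR (adjusted p = 0.0543), without the filter (0.0505) and with only the groups compared (0.0561). With the replicate block it also became 0 (0.105). Same-numbered correlations ran from -0.764 to 0.373 at 90 min and from 0.0221 to 0.041 at 3 days, and every pair exceeded 0.1 only for hM3Dq and EGFP. In that comparison the block ended the call of Pde10a (0.124) and of no other gene named. In every comparison the labels give the libraries only a number in common. The block also took Pde10a relative to rM3Ds to 0.124 and Inhba between the times to 0.0904. For rM3Ds relative to hM4Di it took Vgf to 0.0744 and Nr4a2 to 0.0976. Leaving out 1 library gave 0 to 1 calls for rM3Ds relative to EGFP, for hM3Dq relative to rM3Ds, for hM3Dq relative to hM4Di and for rM3Ds relative to hM4Di, and 0 to 4 for hM3Dq relative to mCherry at 3 days. It gave 0 calls in the remaining comparisons. The calls gained came without rM3Ds 1, or at 3 days without mCherry 3, where edgeR also called more of all genes than in the main fit. For rM3Ds relative to EGFP it called 115 genes there and 2 in the main fit. At 3 days these counts were 1257 and 0. These gained calls are therefore not particular to the 10 genes. Sik1 with hM4Di relative to EGFP changed sign to 0.0208 with the term for libraries standing apart, 0.0177 without hM4Di 2 and 0.0215 without EGFP 1, and ran from -0.213 to 0.0215 over the libraries left out. The cause of these changes was not tested. Of 678 alternatives for 51 gene values, 610 kept direction and side of the threshold, 56 lost the call, 9 gained one and 3 reversed. Over all genes the calls were 107 for hM3Dq relative to EGFP, with 50 to 231 under the alternatives. Relative to EGFP they were 2 for rM3Ds (0 to 115) and 0 for hM4Di (0 to 30). With 3 libraries a group the intervals above set what could be seen, and at 90 min 54 of 60 pathway genes and 24 of 27 targets passed the filter on low counts, so Pde4c and the other genes below it were not tested.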
